A study of Homo sapiens with 10 samples.

Results

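CFTR and 5 other genes of epithelial chloride transport were examined on 10 exon arrays of DLD-1 cells, with 1 value per gene probe. DLD-1 is an established line from a human colorectal adenocarcinoma. The genes are CFTR, SLC12A2, KCNQ1, KCNN4, SLC26A3 and SLC9A3R1, which RefSeq and the text below call NHERF1. All 6 have a single-symbol probe, among 14232 genes that do. CFTR was selected on its large drop in the clone of construct V2LHS_62675 alone, so its levels, and all comparisons of that clone for these genes, are given as a description with no test. SLC12A2, KCNQ1, KCNN4 and NHERF1 belong to the same secretion route, while SLC26A3 is an apical exchanger that absorbs chloride. SLC26A3 had a mean level under the filter on dim probes, a log2 level of 5.96, so 5 of the 6 entered the fit across 11199 features.

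Chloride secretion moves salt and water into the gut lumen. SLC12A2 loads chloride into the cell across the basolateral membrane, the potassium channels KCNQ1 and KCNN4 keep the cell negative inside, and chloride leaves through CFTR in the apical membrane. CFTR is a chloride and bicarbonate channel opened by cyclic AMP-dependent protein kinase, and its loss of function causes cystic fibrosis. In cells that do not express it, the CFTR locus has been found close to the nuclear periphery, where the lamina lies. No array value here measures position in the nucleus.

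The groups were cells with short hairpin RNA (shRNA) against LMNB1, the lamin B1 gene, and 2 kinds of control. Construct V2LHS_62673 was represented by single cell clones 8, 9 and 12, with 1 array each. Construct V2LHS_62675 was represented by 3 arrays of 1 clone, so construct and clone cannot be told apart there. The sample descriptions call it clone 2 while the titles call it clone 12, and the descriptions were followed. The titles also call its 3 arrays biological replicates, and here the arrays were averaged as 1 clone. The controls were 3 empty vector clones and 1 culture of wild type DLD-1 cells. All cultures but the wild type were kept under puromycin. The design text calls the other clones biological replicates. It does not say whether they were grown and extracted separately, so p-values measure the spread between these samples, which may be partly technical.

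The probe that covers LMNB1, which the annotation shares with PCIF1, read 7.45 to 7.79 on the 6 knockdown arrays and 8.84 to 9.52 on the 4 control arrays. The array of clone 8 stood apart, with correlations of 0.915 to 0.926 with the other arrays, which correlated at 0.986 to 0.994 with each other. Differences that use clone 8 are therefore given with and without it. Of 10 colon epithelium markers, 9 passed the filter, and KRT20, a keratin of differentiated colon cells, was dim at 4.78 to 5.44. The mean over 11 probes for leukocyte, endothelial, fibroblast and neuronal markers was 5.74 to 5.93 in the empty vector clones, 5.88 in clone 2 and 6.39 in clone 8. Of these 11 probes, 6 passed the filter too, so passing it does not show that a gene is expressed. The fibroblast marker COL1A1 read 7.34 to 7.63 in the empty vector clones, above the member KCNN4 at 6.72 to 6.97. In bulk RNA, fewer cells with a transcript and less of it per cell cannot be told apart.

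The stretch of 250 bases before the CFTR start site is shown because the level of this transcript is what the data turn on. It lies at chr7:117479775-117480024 on the plus strand of GRCh38.p14 in the RefSeq promoter table. Capitals mark the matches to a CCAAT box (CCAAT, here on the reverse strand as ATTGG) and to a variant cyclic AMP response element (TGACATCA), searched on both strands.
CFTR: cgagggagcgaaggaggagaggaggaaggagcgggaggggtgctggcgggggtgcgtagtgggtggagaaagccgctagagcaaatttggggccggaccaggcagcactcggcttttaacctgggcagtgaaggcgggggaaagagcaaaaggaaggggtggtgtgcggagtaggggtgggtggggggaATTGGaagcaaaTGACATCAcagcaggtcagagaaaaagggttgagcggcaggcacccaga
The TGACATCA match begins 49 bases before the start, and the CCAAT match begins 61 bases before it, so they do not overlap. Among 35116 promoter windows of this length, 2.37% hold TGACATCA, 1.65% hold the consensus element TGACGTCA, and 32% hold CCAAT. The CFTR window holds no TGACGTCA. TGACATCA was not found in the windows of SLC12A2, KCNN4, SLC26A3 or NHERF1, and KCNQ1 was not matched in that table. These matches describe letters, and the arrays give no measurement of promoter use.

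CFTR was low in clone 2 and at similar levels in all other clones and cultures. Its log2 level was 8.24 in wild type cells and 8.24, 8.18 and 7.98 in empty vector clones 1, 2 and 3. In the clones of construct V2LHS_62673 it was 8.51 in clone 8, 8.21 in clone 9 and 8.23 in clone 12. On the 3 arrays of clone 2 it was 6.03, 6.04 and 6.04. Clone 2 therefore lay below every other sample, as did 5.67% of all features, and the other 7 samples lay close together. The means were 8.14 ± 0.13 in the empty vector clones (SD, n = 3), 8.32 ± 0.17 in the V2LHS_62673 clones (SD, n = 3) and 6.04 ± 0.00339 over the arrays of clone 2 (SD, n = 3 arrays of 1 clone).

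The difference of clone 2 from the empty vector mean was -2.10 log2 units, a 4.28-fold lower signal that left 23.3% of it. Against the V2LHS_62673 clones the difference was -2.28, and -2.18 without clone 8. From low to high, clone 2 was followed by the empty vector clones, wild type cells and the V2LHS_62673 clones, and the last 3 groups overlapped. Wild type cells differed from the empty vector mean by 0.11, and the V2LHS_62673 clones by 0.18, or 0.08 without clone 8. When all 4 knockdown clones were set against the 4 controls, the CFTR difference was -0.42. It was -0.67 without clone 8, and 0.15 once clone 2 was left out. These values chose the gene and carry no test.

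In the same comparison, 2 of 11199 features had a lower difference than CFTR, SULT1C2 and PLA2G2A, and 56 features, 0.5%, were lower by 1 log2 unit or more. The level of 6.04 in clone 2 is just above the filter of 5.96. What the deposited scale reads where a transcript is absent is not given in the sources used here, so the remaining signal is not a measure of remaining CFTR RNA. The spread of the 3 clone 2 arrays was unusually small for CFTR, since 0.0357% of features had a smaller one. The median SD of these 3 arrays over all features was 0.119.

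**Figure D1:**
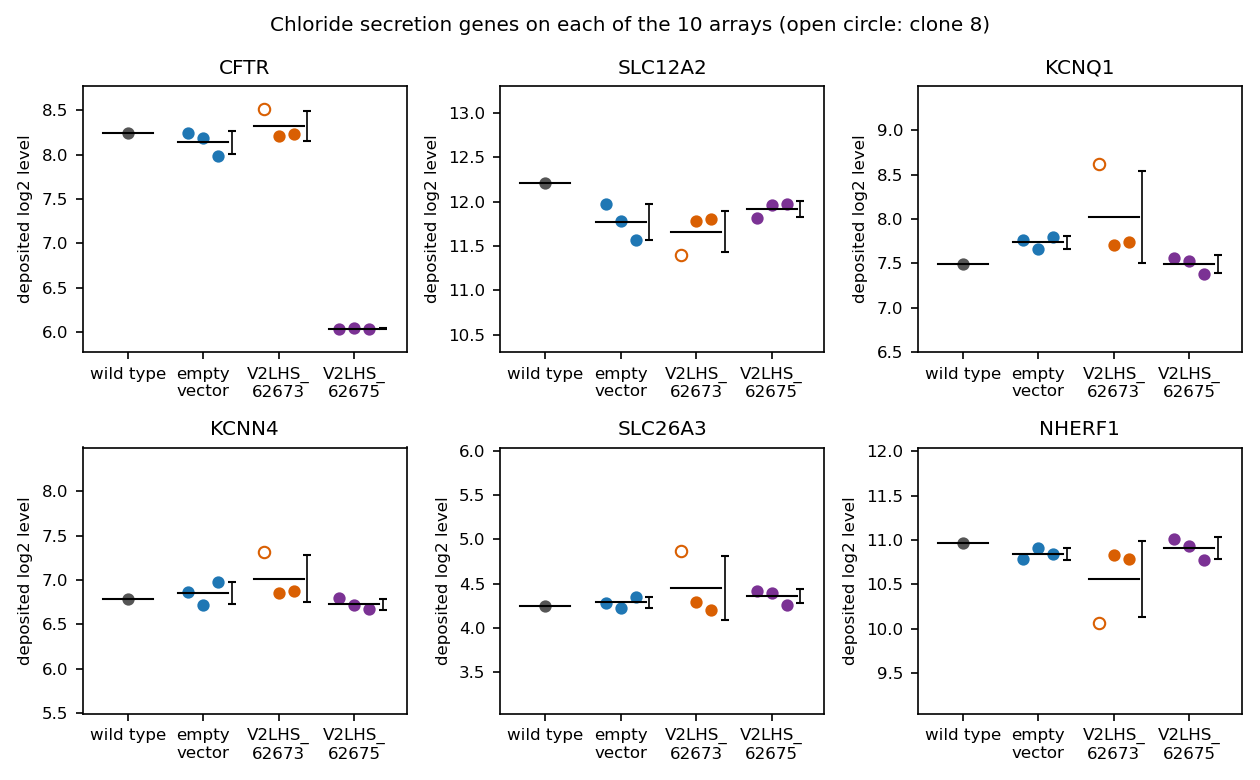
Deposited log2 level (y axis, each panel spanning 3 log2 units) of the 6 genes on the 10 arrays, by group (x axis). Points are arrays, horizontal lines group means and bars the SD. CFTR is at 6.03 to 6.04 on the 3 arrays of construct V2LHS_62675 and at 7.98 to 8.51 on the other 7, while clone 8 (open circle) lies away from its group in the other panels.

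SLC12A2 encodes NKCC1, the sodium, potassium and chloride cotransporter that loads the cell with chloride. Its log2 level was 11.97, 11.78 and 11.57 in the empty vector clones, 12.21 in wild type cells, 11.39, 11.78 and 11.81 in clones 8, 9 and 12, and 11.81, 11.96 and 11.97 on the arrays of clone 2. Wild type cells were the highest, and clone 2 lay inside the range of the empty vector clones, 0.14 above their mean. The V2LHS_62673 clones differed from the empty vector clones by -0.11 (SE 0.19, 95% interval -0.54 to 0.32), and by 0.02 (SE 0.12, -0.24 to 0.29) without clone 8. Neither difference passed in limma, with adjusted p = 0.781 and 0.965. Wild type cells stood 0.44 above the empty vector clones (SE 0.26, 95% interval -0.17 to 1.05, adjusted p = 1.00). Without clone 8, which lowers the estimated spread, that interval was 0.11 to 0.77 with an unadjusted p of 0.0142 and an adjusted p of 0.132 in limma, so it did not pass over all features.

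KCNQ1 encodes the voltage-gated potassium channel of the basolateral membrane that works with cyclic AMP-driven secretion. Its level was 7.76, 7.66 and 7.80 in the empty vector clones, 7.49 in wild type cells, 8.62, 7.70 and 7.74 in clones 8, 9 and 12, and 7.56, 7.53 and 7.38 in clone 2. Clone 2 and wild type cells lay below all 3 empty vector clones, each by 0.25 from their mean. The share of all features below the empty vector clones was not computed, so this only describes the levels. Clone 8 lay above every other array. The V2LHS_62673 clones differed from the empty vector clones by 0.28 (SE 0.26, 95% interval -0.33 to 0.89), and by -0.02 (SE 0.09, -0.22 to 0.19) without clone 8. The sign thus turned with 1 array, and neither value passed in limma (adjusted p = 0.742 and 0.968). For wild type cells the interval of the difference was -1.11 to 0.61, and -0.51 to 0.0097 without clone 8.

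KCNN4 encodes the calcium-activated potassium channel of intermediate conductance, which serves calcium-driven secretion. Its level was 6.87, 6.72 and 6.97 in the empty vector clones, 6.78 in wild type cells, 7.32, 6.85 and 6.87 in clones 8, 9 and 12, and 6.79, 6.71 and 6.67 in clone 2. All samples but clone 8 overlapped. The V2LHS_62673 clones differed from the empty vector clones by 0.16 (SE 0.18, 95% interval -0.26 to 0.58, adjusted p = 0.742 in limma), and by 0.0093 (SE 0.10, -0.21 to 0.23, adjusted p = 0.984) without clone 8. Clone 2 differed from the empty vector mean by -0.13 and wild type cells by -0.07.

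SLC26A3 encodes DRA, the apical exchanger of chloride for bicarbonate in the colon, which absorbs chloride. It was dim throughout, at 4.29, 4.23 and 4.35 in the empty vector clones, 4.25 in wild type cells, 4.87, 4.29 and 4.20 in clones 8, 9 and 12, and 4.42, 4.40 and 4.26 in clone 2. Apart from clone 8 the arrays spread over about the same narrow range. It was not tested, and its differences from the empty vector mean were 0.07 in clone 2, -0.04 in wild type cells and 0.16 in the V2LHS_62673 clones, or -0.04 without clone 8.

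NHERF1 is a PDZ scaffold under the apical membrane that binds the tail of CFTR and, through ezrin, the actin cytoskeleton. Its level was 10.78, 10.91 and 10.84 in the empty vector clones, 10.97 in wild type cells, 10.07, 10.83 and 10.79 in clones 8, 9 and 12, and 11.02, 10.93 and 10.78 in clone 2. Clone 8 was the lowest array and the others overlapped. The V2LHS_62673 clones differed from the empty vector clones by -0.28 (SE 0.23, 95% interval -0.81 to 0.25, adjusted p = 0.742 in limma), and by -0.03 (SE 0.09, -0.24 to 0.17, adjusted p = 0.924) without clone 8. In clone 2, where CFTR was low, NHERF1 was 0.06 above the empty vector mean, and in wild type cells 0.12 above it.

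None of the 4 tested members, SLC12A2, KCNQ1, KCNN4 and NHERF1, passed in limma between the V2LHS_62673 clones and the empty vector clones, and none had an unadjusted p under 0.05. Over all features, 0% passed and 359 had an unadjusted p under 0.05. Without clone 8 the count of members was again 0, with 0.991% of features called. Between wild type cells and the empty vector clones, 0 of 4 passed in limma and 0 had an unadjusted p under 0.05, with 0% of features called and 290 at that unadjusted p, and without clone 8 again 0 of 4, with 3.57% called and 1 member, SLC12A2, at an unadjusted p under 0.05. Between the 4 knockdown clones and the 4 controls, 0 of 4 passed with or without clone 8 (adjusted p 0.761 to 0.771 and 0.964 to 0.985 in limma), and 0 had an unadjusted p under 0.05. Of all features 0% were called in each case, with 256 and 724 at an unadjusted p under 0.05. A p that misses the threshold does not show that levels are alike. Without clone 8, the 95% intervals for the V2LHS_62673 clones lay between -0.24 and 0.29 log2 units for these 4 genes.

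**Figure D2:**
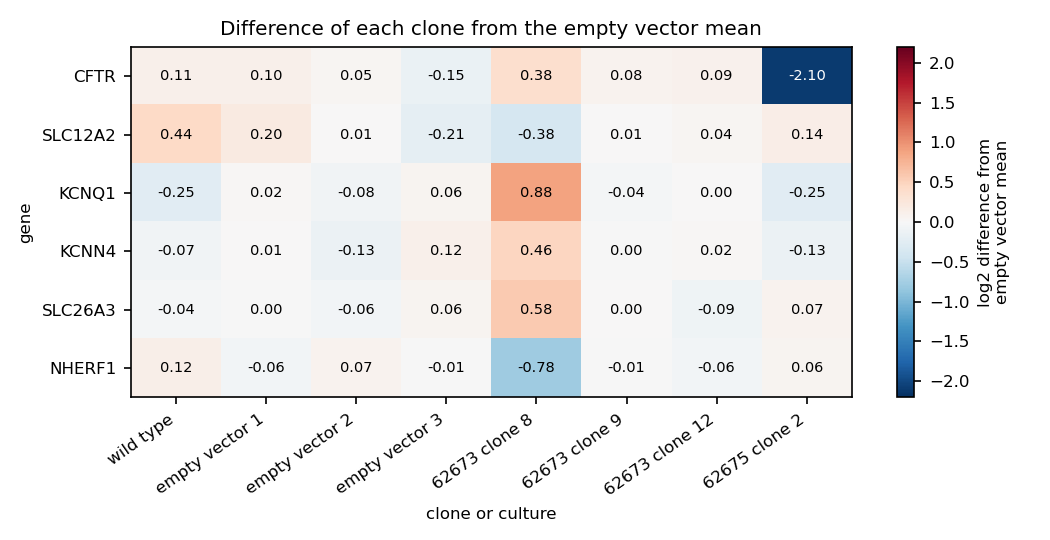
Log2 difference of each clone or culture (columns) from the mean of the 3 empty vector clones, for the 6 genes (rows); clone 2 is the mean of its 3 arrays, and colour follows the printed value. CFTR in clone 2, at -2.10, is the largest difference, and the next in size are KCNQ1 (0.88) and NHERF1 (-0.78) in clone 8.

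In clone 8 the dimmer members read higher and the brighter ones lower. SLC26A3, KCNN4, KCNQ1 and CFTR lay 0.58, 0.46, 0.88 and 0.38 above the empty vector mean, and SLC12A2 and NHERF1 lay 0.38 and 0.78 below it. The medians over all features ran the same way on that array. With the features split into 4 bins of equal size by empty vector level, the median difference was 0.57, 0.42, -0.06 and -0.65 from the lowest bin to the highest. In clone 9 the same medians lay between -0.03 and 0.04. The part of this array-wide shift in the members' values was not tested. CFTR, whose empty vector level lies in the third bin, was higher in clone 8 than the median of that bin.

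**Figure D3:**
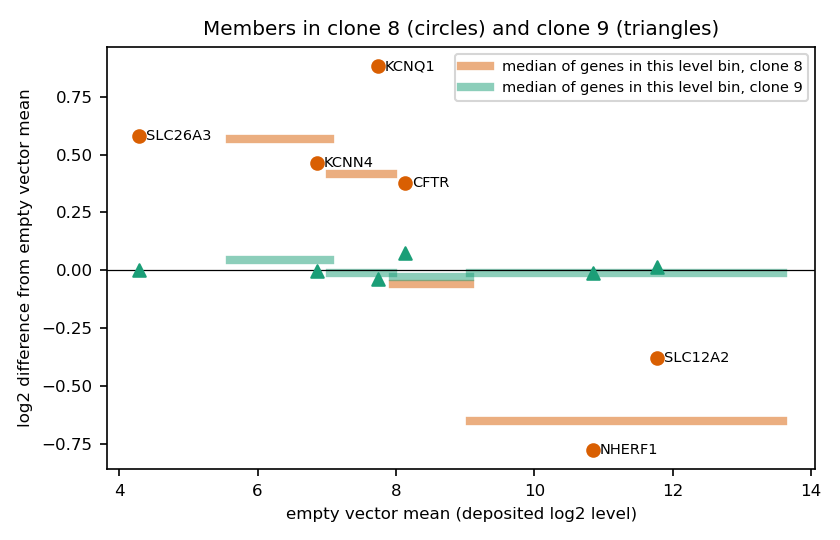
Log2 difference from the empty vector mean (y axis) of the 6 genes in clone 8 (circles) and clone 9 (triangles) against their empty vector mean (x axis, deposited log2 level). Thick lines give the median of all features tested in each of 4 bins of level. Members and bin medians in clone 8 run from above 0 at low levels to below 0 at high levels, from 0.57 in the lowest bin to -0.65 in the highest, and those of clone 9 stay near 0.

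The immediate surroundings of CFTR on chromosome 7 were described next, using the 5 nearest genes with a single-symbol probe on each side in the RefSeq order of GRCh38. CTTNBP2, a cortactin-binding protein gene and the nearest on the far side of CFTR, was the neighbour with the largest difference in clone 2. It read 5.91 to 6.03 there, 6.29 to 6.46 in the empty vector clones, 6.99 in wild type cells and 6.86, 6.49 and 6.73 in clones 8, 9 and 12. Clone 2 was thus below every other sample, at -0.42 from the empty vector mean beside -2.10 for CFTR. Clone 2 was the lowest sample for 5.67% of all features, and CTTNBP2 is singled out here as the largest of 10 differences. The CTTNBP2 mean in clone 2, 5.967, lies just above the filter of 5.96. Whether CTTNBP2 and CFTR share a local fall was not tested. ASZ1, a germ cell gene and the nearest on the other side, was dim in all samples, at 3.84 in clone 2 and 3.79 to 3.93 in the empty vector clones. WNT2, ANKRD7 and KCND2 were also under the filter, with clone 2 differences of 0.01, -0.04 and 0.15. Among the brighter neighbours, the actin capping gene CAPZA2 (-0.02), the growth factor receptor gene MET (-0.06), the caveolar gene CAV1 (-0.01) and the RNA-binding gene LSM8 (0.01) in clone 2 were close to the empty vector mean. The tetraspanin TSPAN12 stood at 0.19. The median over the 10 neighbours was -0.0052, beside 0.02 over all features.

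**Figure D4:**
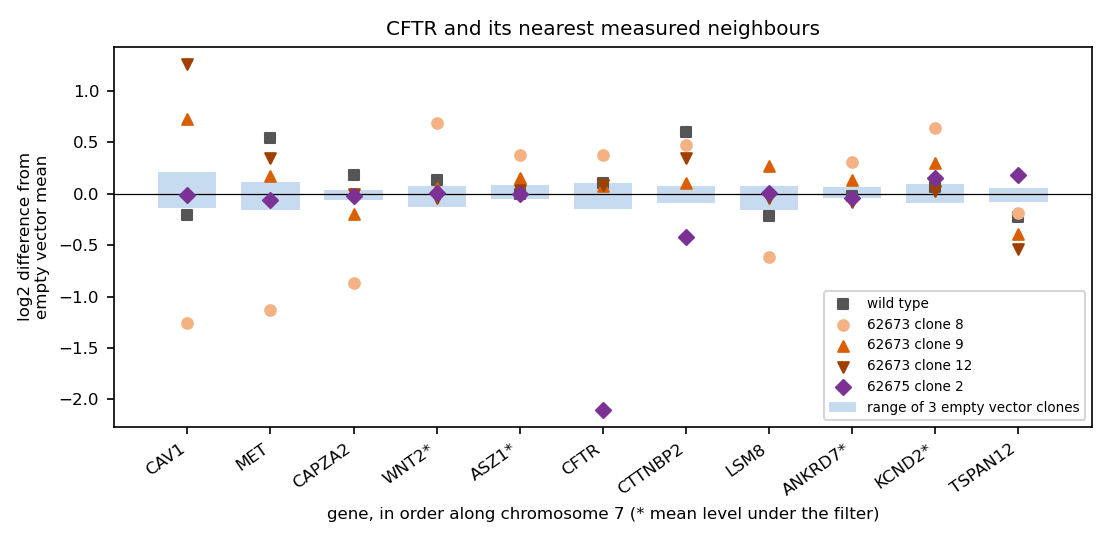
Log2 difference from the empty vector mean (y axis) for CFTR and its 10 nearest measured neighbours in order along chromosome 7 (x axis, not to scale); bars span the 3 empty vector clones, and symbols give wild type cells and the knockdown clones. Clone 2 (diamonds) is at -2.10 for CFTR and -0.42 for CTTNBP2 and within 0.19 of the empty vector mean elsewhere.

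The genes whose profile was most like that of CFTR were found by the root mean square distance over the 8 clones and cultures, after each gene's empty vector mean was subtracted. FHIT, a diadenosine triphosphate hydrolase gene at a fragile site, was nearest with a distance of 0.389, and a gene with no change in any sample would have had a distance of 0.759. FHIT read 6.83 in clone 2 and 7.97 to 8.35 in the empty vector clones, 7.69 in wild type cells and 8.49, 8.46 and 8.06 in clones 8, 9 and 12. Next came CEMIP, a hyaluronan-degrading protein gene (0.407), CADPS of vesicle exocytosis (0.411), the metabolic coactivator gene PPARGC1A (0.412) and PROM1, a membrane glycoprotein gene of progenitor cells (0.458). Their clone 2 differences were -1.37, -1.19, -1.08, -1.54 and -1.42 in the order named. All are smaller in size than that of CFTR, and the likeness says nothing of shared function or control.

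Other genes linked to epithelial ion transport, secretory or absorptive, were taken from 8 lists. The lists cover apical anion channels, basolateral loading, potassium channels, sodium absorption, scaffolds and traffic, folding, secretagogue signalling and transcription factors. They hold 119 genes beyond the members, of which 99 have a probe and 85 were tested. Between the V2LHS_62673 clones and the empty vector clones, 0 of 85 passed in limma with 4 at an unadjusted p under 0.05, beside 0% of all features. Without clone 8, 1 rose and 1 fell, 2.35% of the lists beside 0.991% of features (0.304% higher, 0.688% lower), and the medians were -0.01 and -0.0006. RAB25, a small GTPase of apical recycling, fell by 0.69 (SE 0.10, adjusted p = 0.0195 in limma). Its level was 9.94 and 9.75 in clones 9 and 12, and 10.43 to 10.62 in the empty vector clones. PTGER2, a prostaglandin E2 receptor that raises cyclic AMP, rose by 0.52 (SE 0.10, adjusted p = 0.0405 in limma), at 7.22 and 7.36 against 6.66 to 6.82. With clone 8 included, their differences were -0.81 and 0.30 and neither passed in limma (adjusted p = 0.742). Clone 8 read 9.475 for RAB25, below the empty vector clones like clones 9 and 12. For PTGER2 it read 6.612, below the empty vector clones and so opposite to clones 9 and 12. Whether PTGER2 is expressed is not shown, since the fibroblast marker COL1A1 read 7.34 to 7.63 in the empty vector clones. In wild type cells, 0 of 85 passed with 1 at an unadjusted p under 0.05. Without clone 8, 1 of 85 passed, 1.18% beside 3.57% of features. It was FXYD3, a regulator of the sodium pump, at 8.96 beside 9.42 to 9.74 in the empty vector clones, a difference of -0.66 (adjusted p = 0.0394 in limma, and 1.00 with clone 8). Wild type cells are 1 array, so their spread in this fit is taken from the other groups. FXYD3 was also lower than the empty vector mean in clone 2, at 9.04 to 9.34 (-0.44), and in the V2LHS_62673 clones, by differences of -0.42 with clone 8 and -0.27 without it.

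Clone 2, the comparison from which CFTR was chosen, enters the fit as 1 averaged sample, and its spread is taken from the other groups, so the counts for these 85 genes are a description of 1 clone. With all clones 0 of 85 passed in limma, beside 0% of features and with 3 at an unadjusted p under 0.05. Without clone 8, 2 higher and 3 lower passed, 5.88% beside 3.74% of features (1.54% higher, 2.21% lower). The median of the 85 was -0.03, beside 0.02 over all features, and 37 of them were higher and 48 lower. For the genes that passed, lower or higher, the clone 2 arrays did not overlap the empty vector clones. These genes were picked in this same comparison and the arrays are of 1 clone, so that adds no support. CLIC5, an ezrin-linked member of the intracellular chloride channel family, read 7.79 to 8.46 on the arrays of clone 2 and 8.99 to 9.14 in the empty vector clones, a difference of -1.02. SLC9A2, an apical sodium and proton exchanger, read 7.45 to 7.75 against 8.37 to 8.66 (-0.89). RAB25 read 9.67 to 10.00 against 10.43 to 10.62 (-0.67). On the higher side, KCNE3, the subunit that holds KCNQ1 open in the colon, read 6.57 to 7.20 against 6.16 to 6.34 (0.63). Clone 8 was higher still at 7.42. For KCNE3, wild type cells, at 6.58, lay within the range of the clone 2 arrays, and clones 9 and 12 were above the empty vector clones as well. DNAJA1, a co-chaperone of the HSP70 system, read 8.48 to 9.07 against 7.91 to 8.29 (0.80). It was above the empty vector clones in the other samples too, at 8.55 in wild type cells and 8.84, 8.61 and 8.55 in clones 8, 9 and 12. Its V2LHS_62673 difference was 0.62, and 0.53 without clone 8. KCNE3 stood at 0.48 there, and 0.13 without clone 8. The V2LHS_62673, clone 2 and wild type comparisons share the 3 empty vector arrays.

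Set directly against the V2LHS_62673 clones, clone 2 had 0 of 85 list genes past the threshold in limma, with 1 at an unadjusted p under 0.05 and 0% of features called. Without clone 8, 4 were lower and none higher, 4.71% beside 2.15% of features (0.929% higher, 1.22% lower). They were CLIC5 (-1.57), the epithelial ETS factor EHF (-1.12), SLC9A2 (-0.90) and PTGER2 (-0.65). These values leave out clone 8, which read 8.66 for EHF and 6.612 for PTGER2, below the clone 2 means of 9.81 and 6.635. For CLIC5 clone 8 read 8.36, inside the 7.79 to 8.46 of the clone 2 arrays. Only for SLC9A2, at 8.25 against 7.45 to 7.75, did clone 8 lie above them. PTGER2 in clone 2 was -0.13 from the empty vector mean, while clones 9 and 12 were above the empty vector clones.

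Within the lists the remaining genes with the largest differences were as follows. Among apical anion genes, CLCN3, an endosomal chloride and proton exchanger, stood at -0.11 in clone 2 and -0.58 in the V2LHS_62673 clones (-0.14 without clone 8), and SLC26A9, an anion transporter, at -0.0019 and 0.23 (-0.02). CLIC5 stood at 0.13 in the V2LHS_62673 clones (0.55 without clone 8), with 8.36, 9.25 and 10.02 in clones 8, 9 and 12, so these clones disagreed. For basolateral loading, SLC4A7, a sodium bicarbonate cotransporter, stood at -0.39 in clone 2 and -0.40 in the V2LHS_62673 clones (-0.19 without clone 8). The amiloride-sensitive sodium channel gene SCNN1A was at -0.57 and -0.60 (-0.66), and 9.44 in wild type cells, below the 9.67 to 10.26 of the empty vector clones. NEDD4L, a ubiquitin ligase of that channel, was at -0.05 and -0.29 (0.13).

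Of the scaffold and traffic genes, EZR, which encodes ezrin, read 9.81 to 10.25 in clone 2 and 9.65 to 9.70 in the empty vector clones, a difference of 0.33, and stood at 0.14 in the V2LHS_62673 clones (-0.0004 without clone 8). SNAP23, a membrane fusion protein, stood at -0.18 in clone 2 and -0.42 in the V2LHS_62673 clones (0.07). Among folding genes, the endoplasmic reticulum degradation genes SYVN1 and DERL1 stood at -0.26 and 0.05 in clone 2. In the V2LHS_62673 clones SYVN1 was at 0.12 (0.13 without clone 8) and DERL1 at -0.42 (0.02). Of the cyclic AMP-dependent kinase genes, the catalytic subunit PRKACB stood at 0.48 and the regulatory subunit PRKAR2A at 0.34 in clone 2, and wild type cells were higher than the empty vector clones too, by 0.42 and 0.47. In the V2LHS_62673 clones PRKACB was at -0.05 (0.22 without clone 8) and PRKAR2A at -0.64 (-0.09), with 8.07 in clone 8. STK39, the kinase that activates the SLC12A2 product, was at 0.18 in clone 2 and 0.44 in the V2LHS_62673 clones (0.52 without clone 8). Among transcription factors, 11 of 14 had a lower level in clone 2, with a median of -0.09, beside 43.6% of all features. In wild type cells it was 10 of 14 with a median of -0.09, beside 51.8% of features. EHF read 9.60 to 10.19 in clone 2 and 10.36 to 10.72 in the empty vector clones (-0.69). Clone 8 was the lowest sample at 8.66, while clones 9 and 12 read 10.71 and 11.15, so the V2LHS_62673 difference was -0.33 and turned to 0.43 without clone 8. CEBPB, a stress-responsive factor, was at -0.35 in clone 2 and -0.25 in the V2LHS_62673 clones (-0.39 without clone 8). FOXA3, a forkhead factor of gut and liver, was at -0.05 and 0.32 (0.15).

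Of the 9 epithelial markers past the filter, 6 were higher and 3 lower in clone 2 than in the empty vector clones, with a median of 0.09. VIL1, a brush border actin bundler, stood at 0.26 there, CDH17, an intestinal cadherin, at -0.27 and CDH1, epithelial cadherin, at -0.03. CDH17 read 10.10 to 10.12 on the clone 2 arrays, below the 10.27 to 10.47 of the empty vector clones, and the VIL1 mean of 8.87 lay above 8.51 to 8.69. In the V2LHS_62673 clones, where RAB25 was lower and PTGER2 higher without clone 8, 3 of the 9 markers were higher and 6 lower, with a median of -0.15. Without clone 8 all 9 were lower, with a median of -0.17 beside -0.0006 over all features, and 0 passed in limma. VIL1 was at -0.36 there (-0.42 without clone 8), CDH17 at -0.71 (-0.33) and CDH1 at -0.38 (-0.10). In clone 2 against clones 9 and 12, VIL1 had the largest difference of the 9 markers, at 0.68. Clones 9 and 12 read 8.09 and 8.29 for VIL1, below the empty vector clones, while clone 2 lay above them. The part of these markers in the list genes' values was not tested. Of the other cell type markers, CD68, PDGFRB and COL1A1 were at 0.12, -0.11 and 0.05 in clone 2. In the V2LHS_62673 clones they were at 0.29, 0.03 and 0.31, or 0.22, -0.13 and 0.09 without clone 8.

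**Figure D5:**
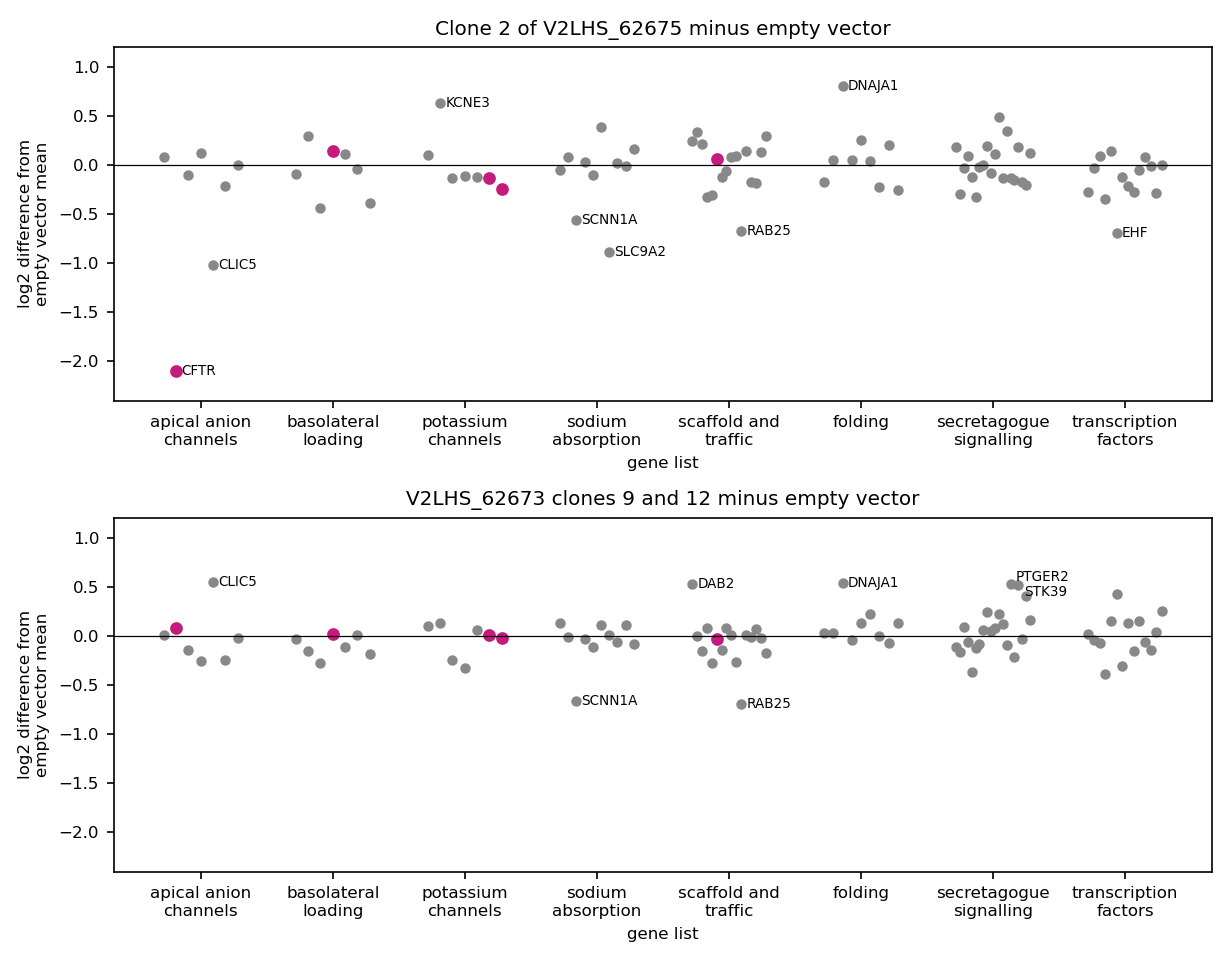
Log2 difference from the empty vector clones (y axis) for the genes of the 8 lists (x axis), in clone 2 (top) and in clones 9 and 12 of construct V2LHS_62673 (bottom); points are genes, pink marks the members, and names are given beyond 0.5. CFTR at -2.10 and CLIC5 at -1.02 lie lowest in clone 2, while in the lower panel all 5 members lie within 0.09 of 0.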

How the data were processed

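The authors deposited 1 log2 value per probe (transcript cluster) and array for 22011 probes. The base was read from the values, which run from 2.64 to 14.06, and how background, normalization and probe summary were handled is not given in the sources used here. The annotation pairs 14432 probes with a single symbol, 2408 with several and 5171 with none, and 14404 of the single-symbol probes matched RefSeq (GRCh38) by gene identifier. The highest-mean probe per gene was kept, and a probe whose mean fell below the 25th percentile (5.96) was left out. The probe shared by LMNB1 and PCIF1 was added. The 3 arrays of clone 2 were averaged, giving 8 samples. Genes were fitted in R 4.3.3 with limma 3.58.1 (lmFit, eBayes), two-sided, Benjamini-Hochberg over all features, threshold 0.05. The 4-group fit had 4 residual degrees of freedom, 3 without clone 8, and clone 2 and wild type cells are assumed to vary like the other groups. Of the comparisons, only that of the V2LHS_62673 clones was tried on simulated data. These were drawn with the spread of the empty vector clones, without the wider spread that clone 8 brings. The members and lists were chosen with earlier results of these data known. The genes named are the members, LMNB1, the 2 largest differences per list in clone 2 and in the V2LHS_62673 clones, any list gene past the threshold, and the 5 genes on each side of CFTR and the 5 most like it. SULT1C2 and PLA2G2A were added to the text with their values known. The number of arrays limits precision.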

Additional observations from a re-analysis of the deposited data

Results flagged for a closer look

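In 12 sets of 4 values, the 6 genes in the knockdown clones and in the controls, a sample was looked for that lies far from the other 3. Chance flags about 1 such set in 20. CFTR in clone 2, at 6.04, lay far below the nearest knockdown clone at 8.21, with a gap of 0.879 of the whole range. This is the value for which the gene was chosen, so it cannot be set against that rate. NHERF1 in clone 8, at 10.07, lay below the nearest knockdown clone at 10.79, with a gap of 0.855 of the range. That array stands apart over all features, so the rate says little here too, and its part in the value was not tested.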

How the results depend on the processing

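The CFTR difference between clone 2 and the empty vector clones ran from -2.17 to -2.05 over the alternatives. CFTR was chosen for this fall, so its steady direction is no support for it. Of the 4 tested members, 0 passed under any alternative. Leaving out 1 sample at a time gave 0 to 111 features called for the V2LHS_62673 clones, 0 to 419 for clone 2, 0 to 400 for wild type cells, 0 to 241 for clone 2 against the V2LHS_62673 clones and 0 to 3 for knockdown against controls. For the pathway lists these ranges were 0 to 2, 0 to 5, 0 to 1 and 0 to 4 in the first 4 comparisons. The upper ends of those 4 came without clone 8, and the 3 without wild type cells. Of the 5 other members, 2 had a clone 2 mean outside the empty vector range, and 1 to 4 did when a sample was left out. The 2 were KCNQ1 and the dim SLC26A3, whose mean of 4.360 lay just above the highest empty vector value of 4.353. The share of all features outside that range was not computed, so this count is no result about the members. With every array as a replicate, the counts of features were 6, 59, 15 and 2 for the V2LHS_62673 clones, clone 2, clone 2 against the V2LHS_62673 clones, and knockdown against controls, and 1 pathway gene was called in clone 2. With the clone as a random block they were 5, 1, 4 and 1. Without the filter 1 feature was called in wild type cells, and quantile normalization or a trended robust prior gave 1 in knockdown against controls. Same-numbered empty vector and clone 2 arrays had deviations correlated at 0.0288, -0.153 and -0.235, so the numbers do not pair the samples. A replicate block gave 944 features and 8 pathway genes in clone 2.

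Signs turned in the V2LHS_62673 comparison when samples were left out in turn, over -0.212 to 0.0241 for SLC12A2, -0.0171 to 0.442 for KCNQ1, -0.28 to 0.552 for CLIC5, -0.0224 to 0.377 for SLC26A9, -0.134 to 0.0115 for SLC9A2, -0.561 to 0.133 for NEDD4L, -0.000447 to 0.226 for EZR, -0.698 to 0.0742 for SNAP23, -0.695 to 0.0246 for DERL1, -0.304 to 0.224 for PRKACB, -0.818 to 0.43 for EHF and -0.13 to 0.147 for PDGFRB. PDGFRB was also -0.081 with quantile normalization and -0.0484 with median centring. Between knockdown and controls KCNQ1 ran from -0.032 to 0.345 and KCNN4 from -0.0186 to 0.179. The cause was not tested. Dim probes such as SLC26A3 limit what can be seen.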

Other observations

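Of the genes around CFTR, CAV1, which encodes a caveolar coat protein, differed among the V2LHS_62673 clones. It read 8.84 and 9.37 in clones 9 and 12, above the 7.97 to 8.32 of the empty vector clones, and 6.86 in clone 8, below them. TSPAN12 read 8.53 and 8.39 in clones 9 and 12 and 8.74 in clone 8, below the 8.85 to 8.99 of the empty vector clones, and 9.12 in clone 2.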
